A study of Arabidopsis thaliana with 4 samples.

Results

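The genes described here are 3 plant defensin genes, PDF1.2 (AT5G44420), PDF1.2b (AT2G26020) and PDF2.1 (AT2G02120), and 3 loci of the trypsin inhibitor family, AT1G47540, AT2G43530 and AT2G43535, in Arabidopsis thaliana seeds. They are 6 of the 16411 genes that had a probe set of their own on the arrays, and each of the 6 was read by 1 probe set. The 6 genes were selected on their names and functions with the genotype differences of these arrays already known (AT1G47540 and PDF2.1 for their low values in the mutant), so those differences are given as a description and without a test. The seeds compared were of the accession Ler-0 as wild type and of wrky43-1, a mutant of the gene for the transcription factor WRKY43. Both groups received abscisic acid (ABA), the hormone that keeps seeds dormant: 10 mg of dry seeds stood for 4 days in liquid 0.5 MS medium containing ABA at 2 µM, and seeds without ABA were not analysed here. Each genotype was represented by 2 biological replicates, hybridised to 4 arrays in all, and wrky43-1 is a single mutant line.

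Plant defensins are small secreted proteins held together by disulphide bridges between cysteines, and many of them inhibit the growth of fungi. PDF1.2 and PDF1.2b encode near-identical defensins that are classical reporters of the combined jasmonate and ethylene response of leaves, whereas defensins of the PDF2 class are known mostly for expression without infection. Trypsin inhibitors of this family are small cysteine-rich proteins related to inhibitors from mustard and rapeseed seeds, and they can block the digestive proteases of insects and other serine proteases.

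The values are array intensities read as log2, so a difference of 1 is a factor of 2. The array medians lay between 4.34 and 4.43, and WRKY43 itself was not analysed here for want of a probe set paired with it alone, so the genotype labels could not be checked on that gene. Of 9 listed seed markers 2 had a probe set of their own, the storage protein gene PAP85, which read 12.86 in wild type and 12.67 in wrky43-1, and the oleosin gene OLEO3, which read 7.26 and 7.17. Of 4 seedling leaf markers 1 was measured, LHCB4.1, a light-harvesting protein gene that read 8.93 in wild type and 8.58 in wrky43-1. The root hair genes EXPA7 (2.95 and 2.74) and EXPA18 (3.01 and 3.19) and the seed coat gene BAN (2.65 and 2.79) all read below 3.3 in both genotypes. None of these markers passed the test, their part in the differences below was not tested, and in whole seeds fewer cells of a type and less RNA per cell cannot be told apart.

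The trypsin inhibitor locus AT1G47540 read 4.45-fold lower in wrky43-1 seeds and PDF2.1 3.0-fold lower. The neighbouring loci AT2G43530 and AT2G43535 read higher by less than a factor of 1.5. The jasmonate reporters PDF1.2 and PDF1.2b had nearly the same mean in both genotypes. Both fall in the lowest 30 percent of probe sets by mean, and their signal over background is unknown. The 6 genes therefore did not share a direction: 3 read higher and 3 lower (47.4% and 52.6% of all genes did), with a median log2 difference of -0.0062 against -0.015 over all 16411 genes. With centred arrays, brought to a common median, PDF1.2b changed sides, which gave 2 higher and 4 lower.

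**Figure D1:**
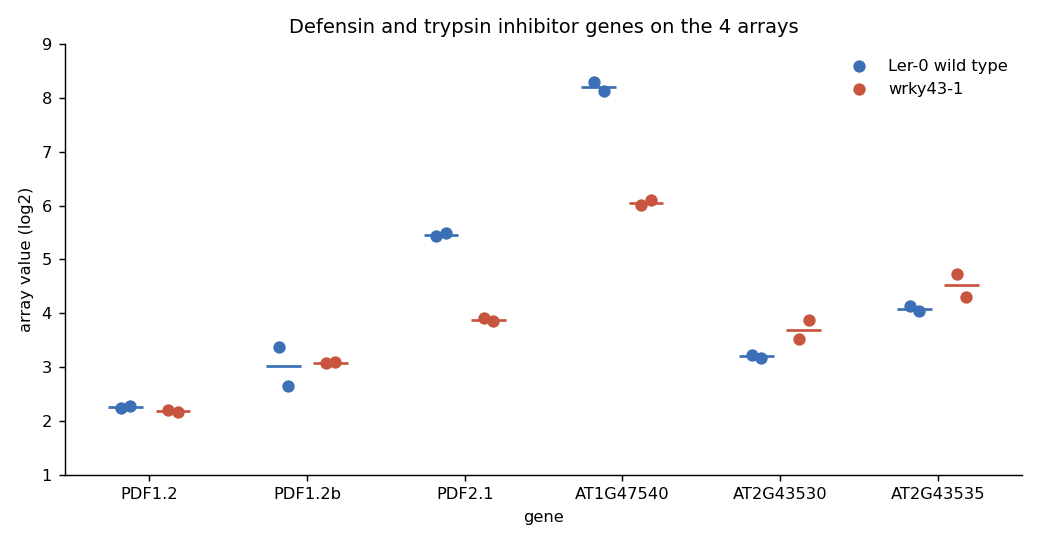
Array values (log2, vertical axis) of the 6 genes (horizontal axis) on the 4 arrays; points are single arrays, bars are the means of the 2 arrays of a genotype, blue for wild type and red for wrky43-1. AT1G47540 and PDF2.1 show wide gaps between the genotypes, while the wrky43-1 points of PDF1.2b lie between its wild-type points of 3.38 and 2.65.

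AT1G47540 read 8.29 and 8.12 in wild type and 6.0 and 6.10 in wrky43-1. The replicates of a genotype lay close together and the genotypes far apart. The means were 8.21 ± 0.12 and 6.05 ± 0.069 (SD, n = 2 each), a log2 difference of -2.15 (SE 0.13) or 4.45-fold. It was the lowest difference of all 16411 genes. The wild-type replicates differed by 0.17, the same as the median gap of 0.17 between the wild-type arrays over all probe sets.

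PDF2.1, the defensin of the PDF2 class, read 5.44 and 5.48 in wild type and 3.90 and 3.85 in wrky43-1. Its replicates were closer than those of AT1G47540. The wrky43-1 values lay below the array medians of 4.34 to 4.43, and their signal over background is unknown. Its means were 5.46 ± 0.030 and 3.88 ± 0.037 (SD, n = 2 each), a log2 difference of -1.58 (SE 0.12) or 3.0-fold. Of all genes 0.0244% had a difference as low or lower.

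AT2G43530 and AT2G43535 stand next to each other on chromosome 2 and both read higher in wrky43-1. AT2G43530 read 3.23 and 3.18 in wild type and 3.52 and 3.87 in wrky43-1, a log2 difference of 0.49 (SE 0.17) or 1.4-fold. AT2G43535 read 4.13 and 4.04 in wild type and 4.73 and 4.31 in wrky43-1, a log2 difference of 0.44 (SE 0.18) or 1.35-fold. For both genes the groups did not overlap, as for 21.7% of all genes on the higher side. The mutant replicates stood wider apart (SD 0.25 and 0.29) than those of wild type (SD 0.040 and 0.065). Of all genes 3.61% had a difference as high as that of AT2G43530 or higher, and 4.98% as high as that of AT2G43535 or higher. The higher of the mutant arrays was replicate 2 for AT2G43530 and replicate 1 for AT2G43535. Without wrky43-1 replicate 2 the difference of AT2G43530 was 0.31, and without replicate 1 that of AT2G43535 was 0.23, which is 1.5 times or more below the values with all arrays.

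PDF1.2, the defensin that jasmonate and ethylene induce in leaves, was among the dimmest probe sets, with only 5.14% of all probe sets reading lower. It read 2.25 and 2.28 in wild type and 2.2 and 2.17 in wrky43-1. The groups did not overlap, as for 25.1% of all genes on the lower side. The margin was smaller than the SE: the log2 difference was -0.083 (SE 0.11). Its copy PDF1.2b read 3.38 and 2.65 in wild type and 3.08 and 3.09 in wrky43-1, so both mutant values lay between the wild-type ones. The wild-type gap of 0.73 was as large or larger in 6.69% of all probe sets, and the log2 difference was 0.070 (SE 0.27). Its sign depended on a single wild-type array, with 0.43 without wild-type replicate 1 and -0.29 without wild-type replicate 2. Because the coding sequences of PDF1.2, PDF1.2b and the third copy PDF1.2c are nearly identical, how far each probe set reads its own gene is uncertain. PDF1.2c (AT5G44430), which follows PDF1.2 directly on chromosome 5, read 2.06 and 2.39 in wild type and 2.67 and 2.41 in wrky43-1 (log2 difference 0.31, SE 0.18; limma adjusted p = 0.477).

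Of the 6 genes 2 had a difference of 1 or more on the lower side, AT1G47540 and PDF2.1, and 0.171% of all genes did. On the higher side the count was 0, against 0.232% of all genes. The groups did not overlap in 3 genes on the lower side (25.1% of all genes) and in 2 on the higher side (21.7%). At an adjusted p under 0.05 in limma, 0 of the 6 were called, and on the higher side 0.0026% of the 38408 probe sets and 0% of genes were; on the lower side both shares were 0%. Since these differences took part in choosing the genes, nothing is read from the shares.

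**Figure D2:**
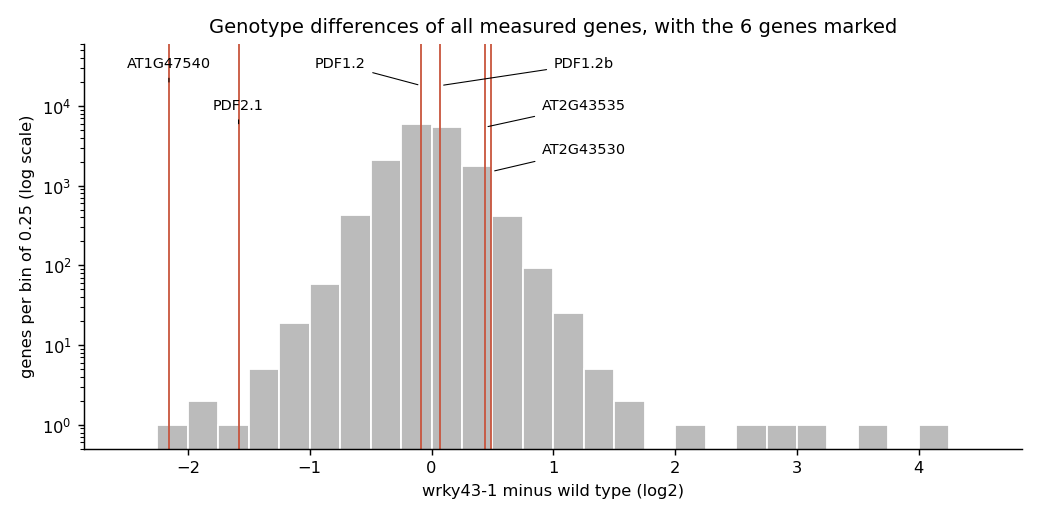
Number of genes (vertical axis, log scale) by log2 difference between wrky43-1 and wild type (horizontal axis, bins of 0.25) for 16411 genes; red lines mark the 6 genes. AT1G47540 at -2.15 and PDF2.1 at -1.58 lie in the sparse left tail, PDF1.2 and PDF1.2b lie near 0, and AT2G43535 and AT2G43530 lie to the right at 0.44 and 0.49.

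The 12 other defensin genes listed were all measured. They are the defensins left over when the 6 genes were chosen, and so are not independent of that choice. In limma 0 of the 12 passed in either direction (smallest adjusted p = 0.161), where 0% of all genes did. At an unadjusted p under 0.05, 2 were higher and 2 lower, where 5.45% and 6.1% of all genes were. Their median log2 difference was -0.097, with 5 reading higher and 7 lower, and this split stayed the same with quantile normalization. Centring lowers every difference by the same amount, so the 7 lower genes could not change sides. The count of 5 higher held with centred arrays only because the defensin gene LCR80 stood at 1.7e-05, in effect no difference.

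PDF1.4 (AT1G19610) had the lowest difference of these 12. It read 7.30 and 7.24 in wild type and 6.24 and 6.49 in wrky43-1, without overlap (log2 difference -0.90, SE 0.14; limma adjusted p = 0.161). PDF1.1 (AT1G75830), which encodes a defensin known from Arabidopsis seeds, read 7.68 and 7.89 in wild type and 6.68 and 7.31 in wrky43-1. Its mutant replicates stood apart (SD 0.44), and the log2 difference was -0.78 (SE 0.25; limma adjusted p = 0.273). For both genes every mutant value lay below every wild-type value, as for 25.1% of all genes, by a narrower margin for PDF1.1.

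PDF2.5 (AT5G63660) had the highest difference of the 12. It read 4.13 and 3.68 in wild type and 4.75 and 4.63 in wrky43-1 (log2 difference 0.79, SE 0.20; limma adjusted p = 0.221). PDF1.3 (AT2G26010), the neighbour of PDF1.2b, read 2.25 and 2.25 in wild type and 2.61 and 1.67 in wrky43-1, so that its groups overlapped. PDF1.5, PDF2.4, LCR80 and LCR59 read between 1.99 and 2.77 on every array, with differences from -0.21 to 0.073. PDF1.2c is described above with PDF1.2, and PDF2.2, PDF2.3 and PDF2.6 are described below with PDF2.1.

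**Figure D3:**
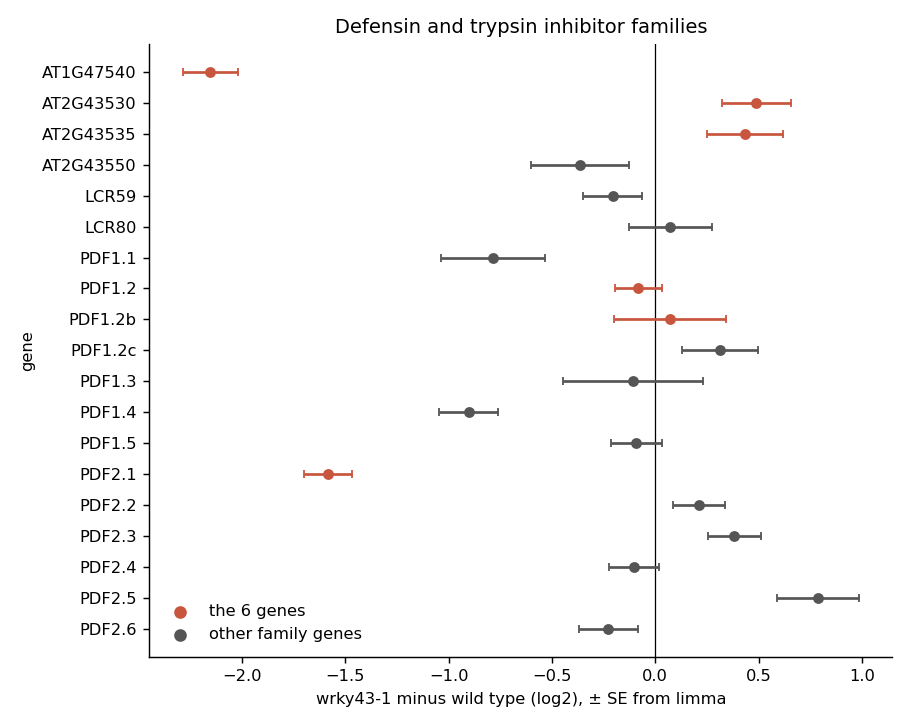
Log2 difference between wrky43-1 and wild type (horizontal axis) with its SE from limma for 15 defensin and 4 trypsin inhibitor genes (vertical axis); red marks the 6 genes and grey the others. PDF2.1 at -1.58 and AT1G47540 at -2.15 were chosen for their low mutant values and lie left of all other genes of their families. PDF1.4 and PDF1.1 follow at -0.90 and -0.78, and PDF2.5 lies farthest right at 0.79.

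PDF2.1 stands in a row of defensin genes on chromosome 2, which lets its difference be set beside those of its close relatives. PDF2.3 (AT2G02130), the next gene in the order of the reference annotation, read 6.77 and 6.71 in wild type and 7.20 and 7.04 in wrky43-1, a log2 difference of 0.38 (SE 0.13; limma adjusted p = 0.285). PDF2.2 (AT2G02100) read 10.43 and 10.38 in wild type and 10.70 and 10.53 in wrky43-1, a difference of 0.21 (SE 0.13; limma adjusted p = 0.487). These genes on either side of PDF2.1 read slightly higher in the mutant, where PDF2.1 read lower. Because PDF2.1 was chosen for its low mutant value, nothing is read from that contrast. The groups of PDF2.2 and PDF2.3 did not overlap, as for 21.7% of all genes on the higher side. The difference of PDF2.2 was 0.083 with quantile normalization, below the SE given above, and 0.14 with centred arrays. That of PDF2.3 was 0.34 and 0.31. PDF2.6 (AT2G02140), farther along the row, read 2.75 and 2.5 in wild type and 2.45 and 2.35 in wrky43-1, a difference of -0.23 (SE 0.14; limma adjusted p = 0.51). Among the 10 nearest genes of PDF2.1, 6 were measured, and their differences ran from -0.37 to 0.38. Of these 0 were called, where 0% of all genes were.

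Of the 6 loci listed for the trypsin inhibitor family 4 were measured. TI1 (AT2G43510) and TI2 (AT2G43520), which precede AT2G43530 directly, were not analysed here for want of a probe set paired with either alone. AT2G43550, which lies just beyond AT2G43535 with a single gene between them, read 3.45 and 3.35 in wild type and 2.74 and 3.34 in wrky43-1. It read lower in the mutant by less than its replicate spread, with a log2 difference of -0.36 (SE 0.24; limma adjusted p = 0.521), and mutant replicate 2 was nearly at the wild-type level. Within this row of related genes the mutant therefore read higher at 2 measured loci and lower at 1. The row held 0 calls, where 0% of all genes were called.

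AT1G47540 lies apart from that row, on chromosome 1. Of its 10 nearest genes 4 were measured, with differences from -0.39 to 0.32 and 0 called, where 0% of all genes were. Of those neighbours 2 read lower and 2 higher. None of the 4 had a difference near the -2.15 of AT1G47540. That gene was chosen for its low mutant value and had the lowest difference of all measured genes, so nothing is read from this contrast. Around PDF1.2 the 6 measured neighbours ran from -0.15 to 0.73, and around PDF1.2b the 6 measured ones ran from -0.22 to 0.35.

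**Figure D4:**
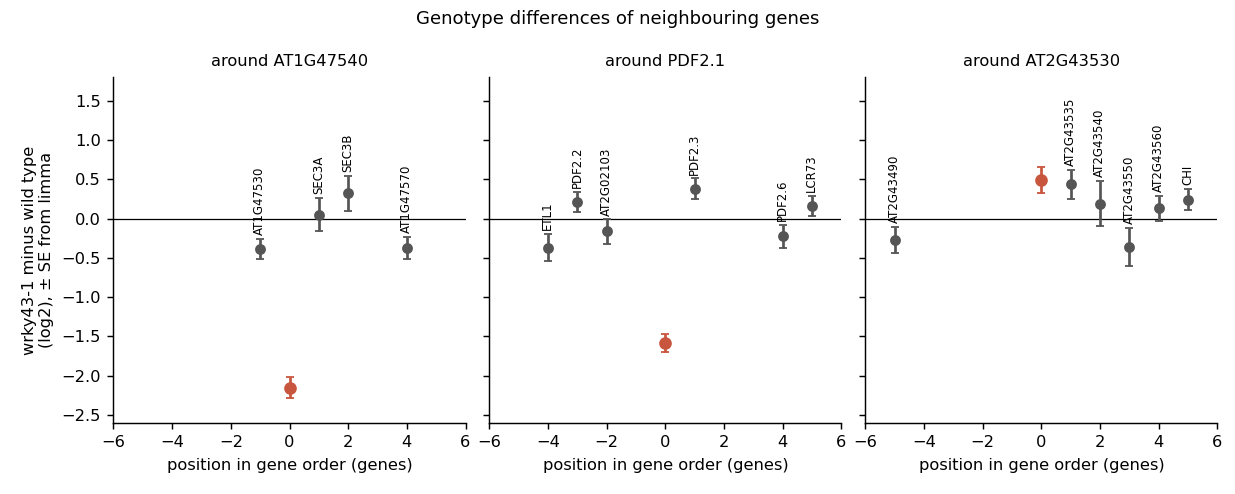
Log2 difference between wrky43-1 and wild type with its SE from limma (vertical axis) against the position in gene order (horizontal axis, 0 is the named gene, shown in red; grey points are measured neighbours within 5 genes). AT1G47540 and PDF2.1, chosen for their low mutant values, lie at -2.15 and -1.58. Their measured neighbours stay between -0.39 and 0.38. AT2G43530 at 0.49 lies beside AT2G43535 at 0.44.

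Protease inhibitors of other families had smaller differences than AT1G47540. On the lower side this was fixed in advance, because AT1G47540 had the lowest difference of all measured genes, and nothing is read from it. Of 27 listed genes 17 were measured, and their differences ran from -0.24 to 0.51. Of the 17, 0 passed in either direction (limma adjusted p from 0.233 to 0.937), where 0% of all genes did. Their families were listed by locus code, and the annotation used here gives a name for CYS1 and SERPIN1 only. At an unadjusted p under 0.05, 2 were higher and 0 lower, where 5.45% and 6.1% of all genes were.

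Both of these were cystatins, which inhibit papain-like cysteine proteases. CYS1 (AT5G12140) read 8.17 and 8.24 in wild type and 8.83 and 8.61 in wrky43-1, a log2 difference of 0.51 (SE 0.14; limma adjusted p = 0.233). AT5G05110 read 5.67 and 5.65 in wild type and 5.98 and 6.22 in wrky43-1, a difference of 0.44 (SE 0.14; limma adjusted p = 0.27). For both the groups did not overlap, as for 21.7% of all genes on the higher side. Those of AT5G47550, the third cystatin measured, did overlap at a difference of -0.043 (SE 0.12).

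The 5 measured Kunitz-type loci all read lower, as did 52.6% of all genes, and all 5 were dim, with genotype means of 2.23 to 3.24. Their differences were -0.24 for AT1G73325, -0.22 for AT3G04320, -0.19 for AT3G04330, -0.11 for AT1G72290 and -0.044 for AT1G17860, with SEs of 0.12 to 0.20. Of the 5, 2 had groups that did not overlap on the lower side, as for 25.1% of all genes. The signs held with quantile normalization. Centring lowers every difference by the same amount, so it could not change these signs and nothing is read from it.

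The 5 inhibitor loci of the PR-6 family of serine protease inhibitors had a median difference of 0.032. AT2G38870 read 8.26 and 8.32 in wild type and 8.03 and 8.15 in wrky43-1 (log2 difference -0.20, SE 0.12), and AT3G46860 differed by 0.27 (SE 0.12) and AT2G38900 by -0.069 (SE 0.12). The values of AT3G50020 (0.032) and AT5G43570 (0.053) changed sign with centred arrays, the first also with quantile normalization. Of 4 serpins, which trap their target proteases, SERPIN1 read 5.36 and 5.35 in wild type and 5.44 and 5.42 in wrky43-1, a difference of 0.076 (SE 0.11) that turned to -0.0085 with quantile normalization. The other serpins differed by -0.19 (AT3G45220), -0.055 (AT2G35580) and -0.046 (AT2G26390).

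**Figure D5:**
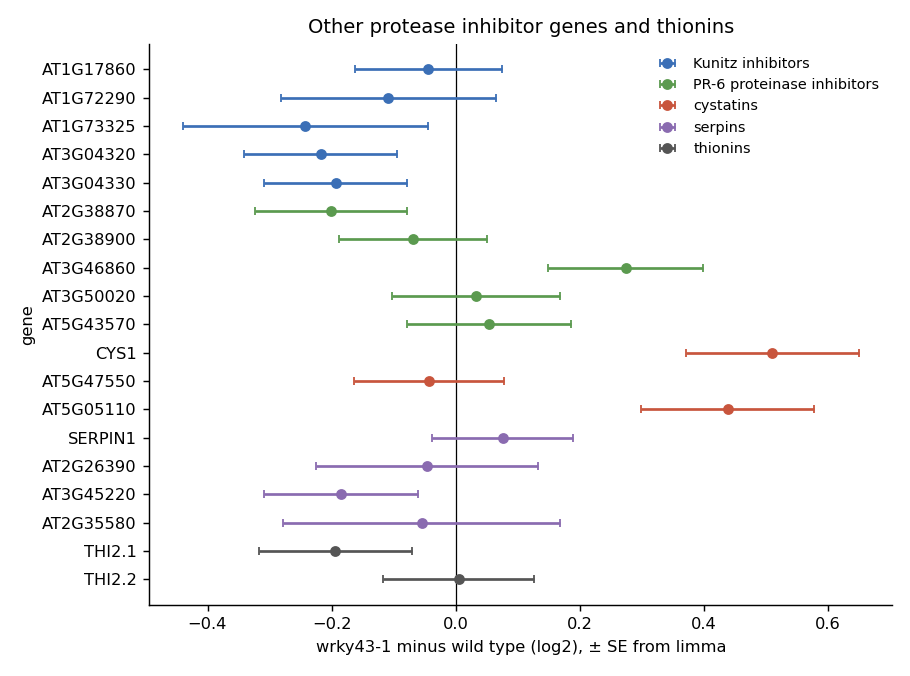
Log2 difference between wrky43-1 and wild type (horizontal axis) with its SE from limma for 17 protease inhibitor genes of other families and 2 thionin genes (vertical axis), coloured by family. All points lie between -0.24 and 0.51, with the cystatins CYS1 and AT5G05110 at the upper end and AT1G73325 at the lower end.

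Thionins are another class of small antimicrobial peptides, and THI2.1 is, like PDF1.2, induced by jasmonate. THI2.1 read 2.66 and 2.52 in wild type and 2.38 and 2.41 in wrky43-1 (log2 difference -0.19, SE 0.12; limma adjusted p = 0.508), and THI2.2 differed by 0.0045 (SE 0.12), or by -0.069 with centred arrays. The genotypes did not overlap for THI2.1, as for 25.1% of all genes on the lower side, and did for THI2.2. Of 19 listed genes of jasmonate and ethylene synthesis and signalling 1 was measured, EIN3, a transcription factor of the ethylene response. EIN3 read 9.20 and 9.36 in wild type and 9.20 and 9.06 in wrky43-1, overlapping groups with a difference of -0.15 (SE 0.14; limma adjusted p = 0.652). None of the 10 listed genes of pathogen response and salicylate and none of the 5 listed 2S albumin genes had a probe set of its own, so they were not analysed here.

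The profiles of the 6 genes over the 4 arrays were compared with those of 16405 other genes by the root mean square distance between values centred on each gene's mean, a description over 4 samples. AT1G47540 and PDF2.1 were 0.30 apart, and AT2G43530 and AT2G43535 were 0.27 apart. No other gene came within 0.1 of AT1G47540 or PDF2.1. The nearest to AT1G47540 were AT3G43340 (0.15), STZ (0.19) and AT5G23110 (0.39), and the nearest to PDF2.1 were AT5G23110 (0.12), UGT73B4 (0.13) and AT1G03890 (0.16). Each of these is a gene with a large negative difference, from -1.29 to -1.97. AT1G47540 and PDF2.1 were chosen for their low mutant values, and the same values dominate this distance. That their nearest genes read lower too, and that few genes lie near them, therefore follows largely from the choice. The same limit holds for the distance between AT1G47540 and PDF2.1.

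The flatter profiles matched many genes. Within 0.1 lay 4214 genes for PDF1.2, 107 for PDF1.2b, 161 for AT2G43530 and 305 for AT2G43535. The nearest were AT3G20490, AT3G19615 and rps19 for PDF1.2 (0.0054 to 0.0080), and AT1G28570, AT4G12870 and AT4G13760 for PDF1.2b (0.0059 to 0.030). For AT2G43530 they were AT4G12140, AT1G80550 and AT5G40500 (0.0036 to 0.032), and for AT2G43535 AT5G42280, AT3G50550 and AT4G29690 (0.014 to 0.025). With so many genes at like distances, these names carry little weight.

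All 6 genes are short, spanning 414 to 874 bp in the reference annotation, where the median of the measured genes is 1912 bp. Of the measured genes 18.9% span under 1000 bp, and these had a median difference of -0.0030, close to the -0.015 of all genes.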

How the data were processed

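The authors' deposited table gives 1 value per probe set and array; since the deposited values span 1.18 to 14.27, they were taken as log2. The normalization used by the authors was not stated in the sources used here. Of 38408 probe sets, 16722 were paired with 1 gene by the annotation of the platform (possibly outdated), and 16574 of these matched the reference annotation TAIR10.1. Where a gene had several probe sets, the one with the highest mean was used. The 20 named probe sets numbered nearest to each of the 6 lay on its own chromosome.

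Genotypes were compared over all 38408 probe sets with limma 3.58.1 in R 4.3.3 (lmFit and eBayes). The test was two-sided, with Benjamini-Hochberg adjustment, a threshold of 0.05, and 2 residual and 2.34 prior degrees of freedom. The fit was first tried on simulated data, with changes larger than any difference of the 6 genes. The number of arrays limits the precision, and the spread is that between the replicates. The 6 genes and the companion lists were chosen with earlier results of these data known. Named genes are the 6, all measured genes of a list with 6 or fewer and otherwise the 3 with the smallest p, the 3 nearest profiles of each of the 6, and family members within 5 genes; PDF1.5, PDF2.4, LCR80 and LCR59 were named after their values were seen. Families of loci without a name in the reference are general knowledge. The replicate numbers are not said to pair samples, so no block was used, and same-numbered replicates did not deviate together. Alternatives covered the block, normalization, centring, filters on dim probe sets, the variance prior, array weights, the probe sets tested and leaving out each array. No sequences were used here, and no coordinates are given because the genome build behind the array is unknown here.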

Additional observations from a re-analysis of the deposited data

How the results depend on the processing

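The count of probe sets called higher in the mutant (1 in the report) was 0 under the replicate block, 2 with centred arrays, 6 without the lowest 50 percent, 12 when only probe sets with 1 gene were tested, 7 when identical ones entered once and 74 with a prior that follows intensity. The count called lower (0 in the report) was 6, 1 and 30 in the last 3 of these settings. Without any single array the counts were 0 to 0 on both sides; the remaining array of that genotype was then taken to vary as the other genotype does. The deviations of same-numbered replicates had a correlation of -0.026, so no shared deviation was seen. That value cannot tell whether the numbers pair the samples. The block left the differences of the 6 genes unchanged (-2.15 for AT1G47540, SE 0.15). PDF2.1, -1.58 as reported, was -1.64 with quantile normalization and -1.66 with centred arrays, and PDF1.2, -0.083, was -0.16 with centred arrays; centring lowers every difference by the same amount, and the cause of the others was not tested. PDF1.2b went from 0.070 to -0.0027 when centred. Without single arrays the differences ran from -2.24 to -2.07 for AT1G47540, -1.61 to -1.56 for PDF2.1, -0.099 to -0.067 for PDF1.2, -0.29 to 0.43 for PDF1.2b, 0.31 to 0.66 for AT2G43530 and 0.23 to 0.64 for AT2G43535. Each gene has 1 probe set, so averaging probe sets changed none of the 6. PDF1.2 and PDF1.2b fall in the lowest 30 percent of probe sets by mean, and AT2G43530 and AT2G43535 also fall in the lowest 50 percent, so 4 and 2 of the 6 pass these filters; signal over background is unknown. With the intensity prior the companion lists held 0 calls in both directions too. Of the 6 genes 1 was called with that prior, where 74 and 30 of all 38408 probe sets were. As the 6 genes were chosen with their differences known, nothing is read from that call.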
